A study of Camellia sinensis with 6 samples.

Results

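Of 40118 gene models counted in shoots of 'Zhonghuang 2', a tea cultivar, 2 chlorophyllases are described here, a chlorophyllase-2 (evm.TU.ChaUn7748.1, below ChaUn7748.1) and a chlorophyllase-1 (evm.TU.Cha05g004350, below Cha05g004350). They were chosen because earlier work on the same libraries had shown them as the leading members of chlorophyll breakdown, with opposite differences between temperatures. Their temperature differences are therefore given as a description, with no test. Another 15 models whose descriptions name a chlorophyllase, a pheophytinase or a pheophorbide a oxygenase were taken by their annotation text and serve as background.

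All libraries came from 1 genotype, 'Zhonghuang 2', whose young shoots etiolate (turn yellow) in the cold. Plants were first kept for 1 month at 22 °C in a 12 h light and 12 h dark cycle, under fluorescent lamps of 200 μmol per square metre per second. The high-temperature group, the control, then stood in a chamber at 26 °C in the light and 22 °C in the dark, and the low-temperature group in another, set to 18 °C in the light and 14 °C in the dark. Warm-grown green and cold-grown yellow shoots were sampled at the time the cold chamber's leaves had turned, with 3 libraries per group. Each temperature had its own chamber, so effects of temperature and of chamber cannot be told apart, and yellow tissue was compared with green. Whether libraries of 1 group represent different plants is not stated in the labels, and p-values therefore reflect library-to-library spread, possibly technical only.

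Library totals ran from 15202546 to 15642015 counts. High-temperature replicate 2 stood apart, with a mean chi-square per gene model of 31.6 and 27.2 against the other high-temperature libraries, which differed from each other by 5.4. Pairs of low-temperature libraries differed by 5.8 to 12.2, where sampling noise alone gives about 1. Markers of leaf mesophyll (chlorophyll a/b-binding proteins, the Rubisco small chain and Rubisco activase) were abundant throughout, with a summed level of 40737 to 55731 CPM (counts per 1e6 library counts) at high and 36637 to 37091 CPM at low temperature. The lowest high-temperature sum, 40737 CPM, was that of replicate 2.

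Chlorophyllase cuts the phytol tail from chlorophyll and leaves chlorophyllide, a water-soluble pigment. In senescing Arabidopsis leaves the tail is removed mainly by another enzyme, pheophytinase, after a STAY-GREEN protein has taken out the magnesium, and pheophorbide a oxygenase then opens the ring. Chlorophyllases are known there from wounded and jasmonate-treated leaves, and from young leaves in which photosystem II is being repaired. Chlorophyll breakdown is also followed in tea because it alters the colour of the shoot.

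Chlorophyllase-2 ChaUn7748.1 was lower in the cold. It lies on the plus strand of assembly sequence 28833, from 14895 to 16335, has a coding length of 702 bases and carries a chlorophyllase domain and no other. Its level was 25.2, 29.5 and 29.6 CPM in high-temperature replicates 1, 2 and 3. In low-temperature replicates 1, 2 and 3 it was 10.7, 11.4 and 12.1 CPM. The groups did not overlap, and the lowest warm library was more than double the highest cold one. The mean was 28.1 ± 2.53 CPM in the warm and 11.4 ± 0.658 CPM in the cold group (SD, n = 3), a log2 difference of -1.30 ± 0.16 (SE), or 2.46-fold. The 95% interval of the difference ran from -1.63 to -0.97 on the log2 scale. Both chlorophyllases were chosen for their difference. This interval and that of Cha05g004350 below do not allow for that choice and are no test.

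Chlorophyllase-1 Cha05g004350 was higher in the cold. It lies on the plus strand of assembly sequence 5, from 30528308 to 30546656, so that a coding length of 723 bases is spread over 18.3 kb. Its level was 10.1, 10.3 and 10.1 CPM in high-temperature replicates 1, 2 and 3. In low-temperature replicates 1, 2 and 3 it was 19.1, 25.3 and 19.1 CPM. The groups did not overlap, and low-temperature replicate 2 was the highest library. The mean was 10.1 ± 0.104 CPM in the warm and 21.2 ± 3.59 CPM in the cold group (SD, n = 3), a log2 difference of 1.06 ± 0.18 (SE), or 2.09-fold, with a 95% interval from 0.69 to 1.43. Shoots hold many cell types, and in bulk RNA fewer cells of a type and less RNA per cell cannot be told apart.

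**Figure D1:**
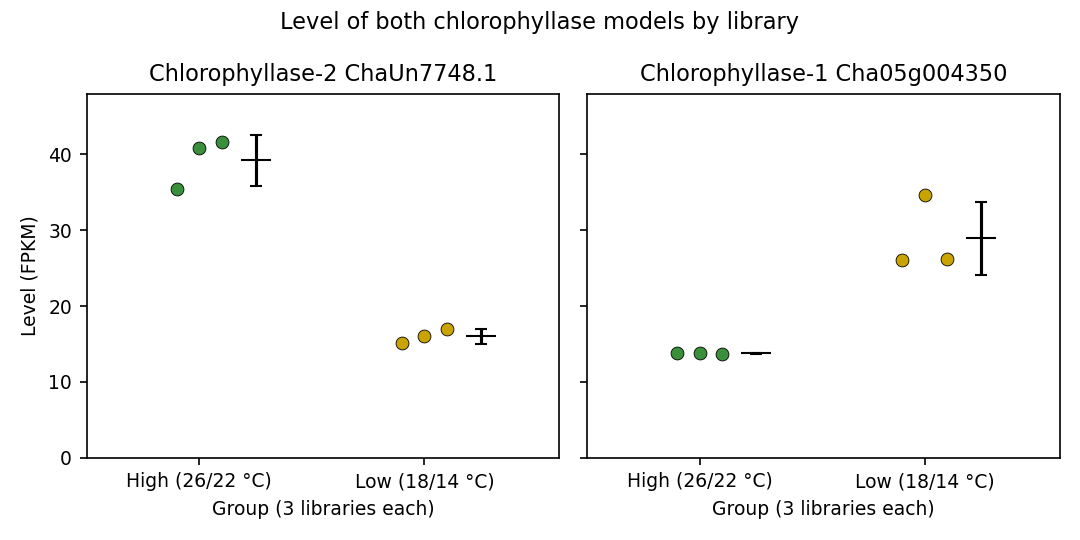
Level of chlorophyllase-2 ChaUn7748.1 (left) and chlorophyllase-1 Cha05g004350 (right) in FPKM, fragments per kilobase of coding length, scaled to library depth. Points are libraries, and the bars beside them the mean ± SD of 3 libraries. ChaUn7748.1 lies between 35.4 and 41.6 FPKM at high and between 15.1 and 17.0 FPKM at low temperature, while Cha05g004350 lies between 13.7 and 13.8 FPKM at high and between 26.0 and 34.6 FPKM at low temperature.

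The spread of the chlorophyllases was measured in each group. For chlorophyllase-1 Cha05g004350 the coefficient of variation was 1.02% at high and 16.9% at low temperature, and for chlorophyllase-2 ChaUn7748.1 it was 9.0% and 5.78%. These are CPM over 3 libraries each and were not tested. The 1.02% is smaller than counting error alone would give at such counts, so a difference in spread between groups cannot be read from it. The smallest count behind any of these values was 149 (exact Poisson 95% interval 126 to 175) and the largest 491 (449 to 536), intervals that cover counting error only. High-temperature replicate 2, which stood apart over all gene models, did not set either difference. Without it the log2 difference of ChaUn7748.1 was -1.26 and that of Cha05g004350 was 1.07. Of all tested gene models, 3.95% had a difference larger in size than that of ChaUn7748.1 and 6.95% one larger than that of Cha05g004350. These ranks follow from the choice of both models for their difference and are no test. Averaged over the 6 libraries, ChaUn7748.1 had 27.6 FPKM, above 77.2% of the tested models, and Cha05g004350 had 21.4 FPKM, above 71.6%.

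The order of these chlorophyllases was inverted between groups. The FPKM of ChaUn7748.1 was 2.56, 2.96 and 3.03 times that of Cha05g004350 in high-temperature replicates 1, 2 and 3. In low-temperature replicates 1, 2 and 3 the ratio was 0.58, 0.463 and 0.649. Their sum moved less than either alone, from 53.0 ± 3.33 to 45 ± 4.94 FPKM (SD, n = 3). The sum was 49.2 to 55.3 FPKM in the warm libraries and 41.1 to 50.5 FPKM in the cold ones, and these ranges overlapped. The pair was chosen for opposite differences, so the shift in their ratio and the partial cancelling in their sum follow from that choice.

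The annotation holds 9 chlorophyllase models, 6 with the protein name chlorophyllase-2 and 3 with chlorophyllase-1, on 5 assembly sequences. Of these, 5 had enough counts to be tested, and the other 4 never had more than 11 counts in a library. At high temperature the levels per length ran from ChaUn7748.1 (39.2 ± 3.38 FPKM) and Cha09g014980 (38.7 ± 3.54 FPKM), whose libraries overlapped, through Cha05g004350 (13.8 ± 0.0565 FPKM) and Cha08g000380 (8.52 ± 2.06 FPKM) to Cha05g004390 (4.45 ± 1.53 FPKM, SD, n = 3). At low temperature Cha09g014980 came first with 34.3 ± 2.05 FPKM and Cha05g004350 next with 28.9 ± 4.86 FPKM, and their libraries overlapped. ChaUn7748.1 followed with 16 ± 0.96 FPKM, then Cha08g000380 with 6.81 ± 2.74 FPKM and Cha05g004390 with 1.48 ± 0.343 FPKM. At high temperature the lowest library of Cha08g000380 (6.20 FPKM) lay just above the highest of Cha05g004390 (6.11 FPKM). The chlorophyllase-2 models Cha09g014980 and Cha08g000380 also carry an RNA polymerase Rpb4 domain, so each may join a chlorophyllase with an unrelated gene, and how their reads divide between these parts was not tested.

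**Figure D2:**
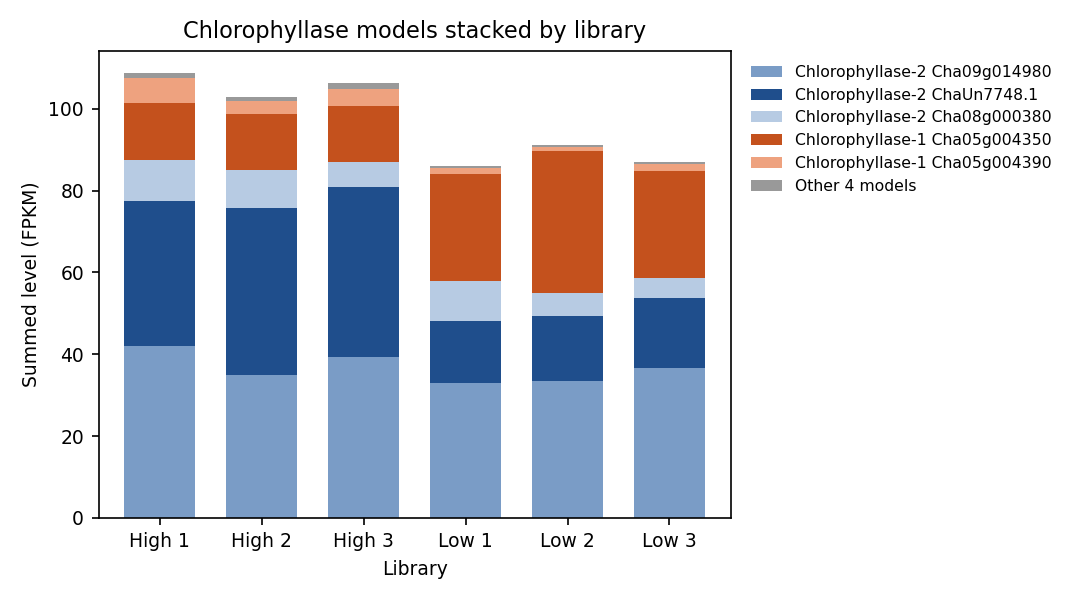
Summed level of the 9 chlorophyllase models in FPKM, stacked by model, in each of the 6 libraries. The total is 103 to 109 FPKM at high and 86.1 to 91.2 FPKM at low temperature, and the dark orange part (Cha05g004350) is larger and the dark blue part (ChaUn7748.1) smaller in the cold libraries.

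Of the summed FPKM of all chlorophyllase models, ChaUn7748.1 made up 37.1% ± 3.96 in the warm and 18.2% ± 1.18 in the cold group (SD, n = 3). Cha05g004350 made up 13.0% ± 0.356 and 32.8% ± 4.43. The share of Cha09g014980 was 36.5% ± 2.35 and 39.0% ± 2.87, a difference about as large as its spread. The 7 other chlorophyllase models, summed without the chosen pair, had 59.6, 48.3 and 51.1 FPKM in high-temperature replicates 1, 2 and 3. They had 44.9, 40.7 and 43.7 FPKM in the low-temperature ones. The means were 53.0 ± 5.85 and 43.1 ± 2.20 FPKM, 18.7% lower in the cold, with no overlap (exact two-sided permutation p = 0.1, the smallest that 3 against 3 libraries allow). Without the models that hold an Rpb4 domain the sum was 5.75 ± 1.65 and 1.93 ± 0.303 FPKM (exact two-sided permutation p = 0.1), a choice made after seeing the data and resting mainly on Cha05g004390.

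Among the other models of chlorophyllase, pheophytinase and pheophorbide a oxygenase, 11 of 15 were tested, 1 rose and 1 fell, or 18.2%. Over all 26767 tested gene models 18.9% were called, 9.27% higher and 9.65% lower at low temperature (edgeR quasi-likelihood test, Benjamini-Hochberg adjusted p under 0.05). Some of the 11 matched through a domain, are named for other proteins and were not called. Counting only models matched by protein name, 2 of 7 tested were called, or 28.6%, a narrower match that was not planned. With so few calls, neither share can be placed above, below or near the background. The median log2 difference was -0.11 over the 11 models and -0.01 over all tested models. In 4 of the 11 no cold library lay within the warm range or the reverse, against 36.5% of all tested models. Without low-temperature replicate 2 edgeR called 0 of the 11, of which 2 had an unadjusted p under 0.05.

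The model that fell was a further chlorophyllase-1, Cha05g004390, named after Arabidopsis CLH1, the coronatine-induced chlorophyllase. It had 53, 31 and 37 counts in high-temperature replicates 1, 2 and 3 and 15, 10 and 15 counts in the low-temperature ones. Its mean was 2.63 ± 0.888 CPM in the warm and 0.871 ± 0.201 CPM in the cold group (SD, n = 3). The log2 difference was -1.59 ± 0.46 (edgeR, adjusted p = 0.0209), with every cold library below every warm one. The call rested on few counts and was lost without high-temperature replicate 1 (adjusted p = 0.104), low-temperature replicate 2 (0.0931) or low-temperature replicate 3 (0.0578). Cha05g004350 and Cha05g004390 thus share the protein name chlorophyllase-1 and had log2 differences of 1.06 and -1.59. The tested chlorophyllase-2 models all had negative log2 differences, -1.30 for ChaUn7748.1, -0.18 for Cha09g014980 (95% interval -0.45 to 0.09, adjusted p = 0.357) and -0.34 for Cha08g000380 (-0.94 to 0.27, adjusted p = 0.457), and the last 2 were not called.

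Cha05g004350 and Cha05g004390 lie on the same assembly sequence, which carries 4 of the 9 chlorophyllase models. The next model after Cha05g004350, 131 kb on and on the same strand, is the chlorophyllase-1 Cha05g004340, which never had more than 11 counts and averaged 0.555 FPKM at high and 0.416 FPKM at low temperature. Cha05g004390 begins 584 kb past the end of Cha05g004350, on the minus strand, and spans 69.8 kb. The chlorophyllase-2 Cha05g004400 lies 116 bases beside it on the same strand and had at most 2 counts in any library. Whether Cha05g004390 and Cha05g004400 are parts of 1 gene was not tested. Before Cha05g004350, the nearest models were a locus without description, with a mean of 0.935 FPKM at high and 0.208 FPKM at low temperature, and an EF-hand protein, Cha05g004330, with 1.04 and 1.38 FPKM, which was not called (log2 difference 0.41, adjusted p = 0.642). The locus without description had 10 counts in high-temperature replicate 2 and at most 1 in any other library. After Cha05g004340 came Cha05g004360, named as a phosphatidylinositol transfer protein, at 0.507 and 0.731 FPKM. Cha05g004350 thus had the highest FPKM of the 5 models in this stretch, counted with 2 neighbours on each side. ChaUn7748.1 is the only gene model on its assembly sequence, so it has no neighbour to compare. Where the counting could not separate near-identical copies, reads may be split among chlorophyllase models.

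**Figure D3:**
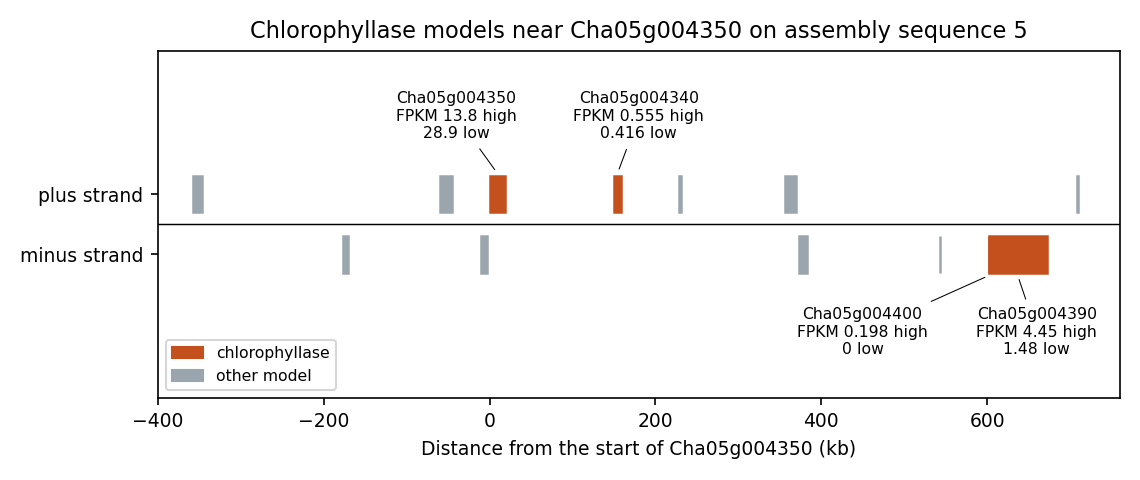
Gene models around chlorophyllase-1 Cha05g004350 on assembly sequence 5, by distance in kb from its start and by strand. The 4 chlorophyllase models are drawn in orange with their mean FPKM in each group, and only Cha05g004350 is higher at low (28.9) than at high temperature (13.8).

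Pheophytinase, the enzyme that takes the same tail from magnesium-free chlorophyll, had 3 models, all tested, of which 1 rose. Cha08g005810 had 41.7, 42.9 and 39.3 CPM in high-temperature replicates 1, 2 and 3 and 59.0, 60.5 and 52.8 CPM in the low-temperature ones. Every cold library was above every warm one. The log2 difference was 0.48 ± 0.13, or 1.39-fold (edgeR, adjusted p = 0.0154), smaller in size than that of either chosen chlorophyllase, a contrast that was not tested. The call was lost without high-temperature replicate 3 (adjusted p = 0.0747) or low-temperature replicate 2 (0.0831). The other pheophytinase models were Cha06g009460 (95% interval of the log2 difference -0.40 to 0.18, adjusted p = 0.634) and Cha01g007650 (-0.67 to 0.41, adjusted p = 0.778). Per length, Cha08g005810 was the most abundant pheophytinase model in both groups, at 35.8 ± 1.38 and 50.2 ± 3.47 FPKM (SD, n = 3). In CPM, Cha06g009460 was higher at high temperature, with 57.3 ± 8.9 against 41.3 ± 1.83 CPM. At low temperature it had 53.1 ± 4.33 against 57.4 ± 4.1 CPM, and their libraries overlapped. Its model of 2373 coding bases also carries a zinc knuckle and a domain of unknown function, and how its reads divide among these parts was not tested.

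Pheophorbide a oxygenase, which opens the ring, was 1 model by protein name, Cha11g004280, with 15.4, 15.3 and 16.2 CPM at high and 13.3, 17.7 and 16.5 CPM at low temperature. The groups overlapped, and the log2 difference of 0.02 had a 95% interval from -0.34 to 0.37, whose upper end is a 1.3-fold rise (edgeR, adjusted p = 0.958). Another 4 models matched by their domain alone and are named for other proteins of the same oxygenase family. They were chlorophyllide a oxygenase (Cha04g009150, 0.27), which makes chlorophyll b, a translocon component 52 (ChaUn7738.1, -0.27) and TIC 55 (Cha14g000220, 0.24, and Cha10g010230, 0.12), values being log2 differences. In Arabidopsis TIC 55 hydroxylates a late product of chlorophyll breakdown. None of these 5 models was called by edgeR, DESeq2 or limma on log2 FPKM, and 1 had an unadjusted p under 0.05 in edgeR.

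**Figure D4:**
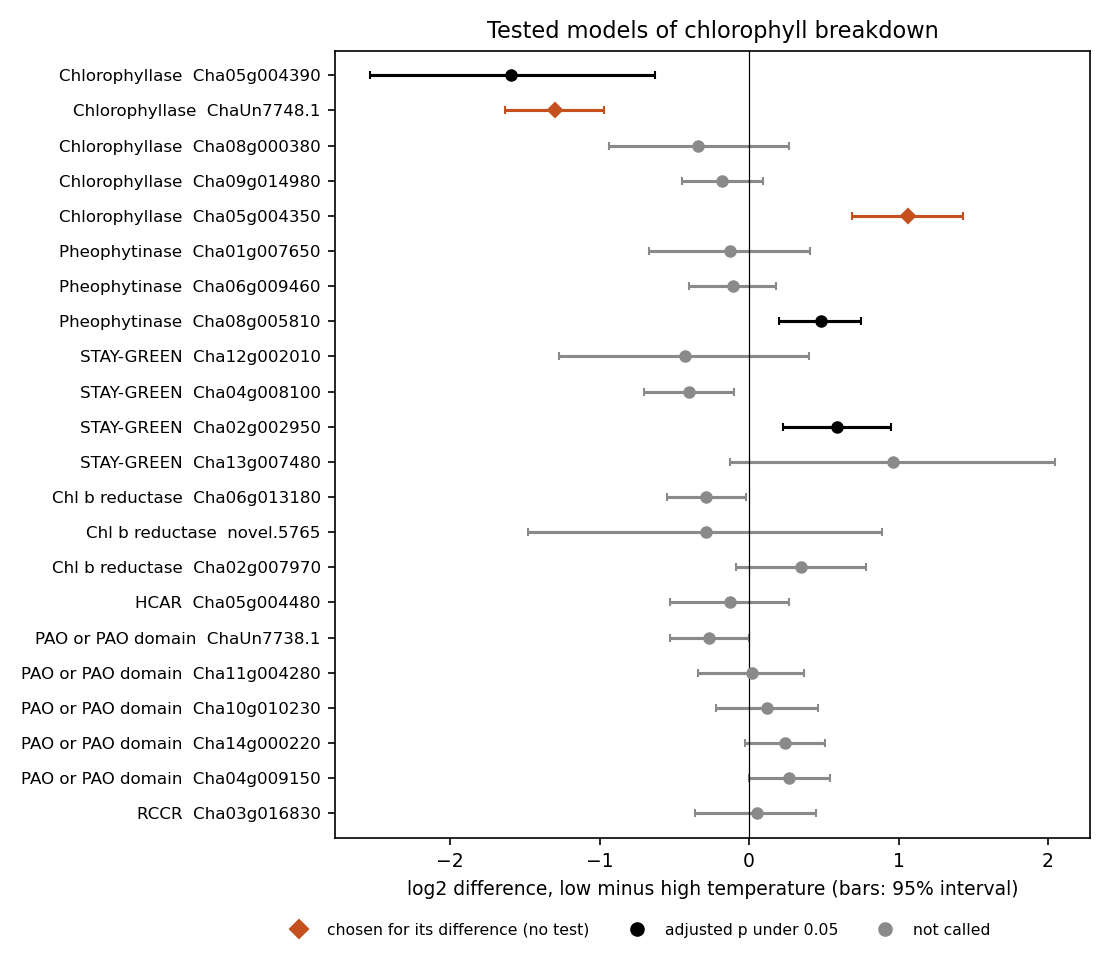
Log2 difference (low minus high temperature) of the 22 tested models whose descriptions matched chlorophyll breakdown, grouped by enzyme, with 95% intervals from the edgeR fit. Some matched by a domain alone and are named for other proteins. HCAR is 7-hydroxymethyl chlorophyll a reductase, PAO pheophorbide a oxygenase and RCCR red chlorophyll catabolite reductase. Orange diamonds are the chlorophyllases chosen for their difference (-1.30 and 1.06), and their intervals do not allow for that choice. Black points were called and grey points were not.

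Descriptions matched 27 models other than the chosen pair to chlorophyll breakdown, from chlorophyll b reductase to the late products. Some matched by a domain alone, among them chlorophyllide a oxygenase, which makes chlorophyll b. Of the 27 models, 20 were tested. Of these 2 rose and 1 fell, or 15% against 18.9% of all tested models, with a median log2 difference of -0.12 against -0.01, and without low-temperature replicate 2 edgeR called 0, with 4 at an unadjusted p under 0.05. The second that rose, Cha02g002950, went from 14.3 ± 1.88 to 21.5 ± 2.80 CPM (adjusted p = 0.021), but it carries the protein name of a tRNA 2'-phosphotransferase and matched by a Staygreen domain. Its call was lost without low-temperature replicate 2 (adjusted p = 0.132). The most abundant STAY-GREEN-type model, Cha04g008100, carries the protein name STAY-GREEN LIKE and not STAY-GREEN. It had 48.1, 50.8 and 43.7 CPM at high and 34, 41.6 and 32.5 CPM at low temperature. Its libraries did not overlap, and the log2 difference of -0.40 had an adjusted p of 0.0562 (edgeR). The protein name STAY-GREEN belongs to 3 models, all low. Cha12g002010 had 2.58 ± 0.960 and 1.91 ± 0.506 CPM (SD, n = 3) and a log2 difference of -0.43 (adjusted p = 0.491). Cha13g007480, which also holds a triosephosphate isomerase domain, had 0.853 ± 0.372 and 1.65 ± 0.438 CPM and one of 0.96 (95% interval -0.13 to 2.05, adjusted p = 0.216). ChaUn10114.4 had too few counts to be tested.

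Chlorophyll b reductase NYC1 (Cha06g013180), which starts the turnover of chlorophyll b, had 107, 105 and 103 CPM at high and 79.3, 88.1 and 90.8 CPM at low temperature. No library overlapped, and the log2 difference of -0.29 was not called (95% interval -0.55 to -0.02, adjusted p = 0.121). Its partner NOL is the name of 2 tested models with log2 differences of opposite sign and no call, Cha02g007970 at 0.35 (95% interval -0.09 to 0.78, adjusted p = 0.269) and a less abundant locus outside the gene caller's models at -0.29 (-1.48 to 0.89, adjusted p = 0.766). The reductase that returns chlorophyll b derivatives to the a form, Cha05g004480, had one of -0.13 (adjusted p = 0.69), and red chlorophyll catabolite reductase (Cha03g016830), which acts after the oxygenase, one of 0.05 (adjusted p = 0.90).

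Enzymes that attach, make or salvage the phytol tail gave 1 called model of 15 tested, or 6.67% against 18.9% of all tested models, and it rose, as did 9.27% of all tested models. Chlorophyll synthase (Cha10g004040) joins the tail to chlorophyllide, the reverse of the chlorophyllase step. It had 66.0, 60.9 and 66.9 CPM in high-temperature replicates 1, 2 and 3 and 106, 125 and 114 CPM in the low-temperature ones. Every cold library was above every warm one, and the log2 difference was 0.83 ± 0.13, or 1.78-fold (edgeR, adjusted p = 0.000263). Further models were picked after their values were seen. Probable phytol kinase 1 (Cha08g007110), of the salvage route, had a log2 difference of -0.45 (adjusted p = 0.0863), and the abundant geranylgeranyl diphosphate reductase (Cha03g010720), which makes the tail, one of 0.36 (adjusted p = 0.229). A less abundant model of the same name, ChaUn8306.2, had one of 0.64 (adjusted p = 0.0898), with no overlap between groups. High-temperature replicate 2 was the lowest warm library of each, at 33.2, 342 and 10.8 CPM. The number of phytol models called was 3 without high-temperature replicate 2 (1 higher and 2 lower) and 2 without high-temperature replicate 1, high-temperature replicate 3 or low-temperature replicate 3. Chlorophyll synthase was called in each of the 15 alternatives tried, with an adjusted p of at most 0.00812.

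Of the models whose descriptions hold the word senescence, 9 of 57 tested were called, 4 that rose and 5 that fell. This is 15.8%, near the 18.9% of all tested models. Those with the smallest p among the rises were a ribosomal L1 domain protein (ChaUn16723.1, log2 difference 0.77, adjusted p = 0.000718) and the plastid chaperone ClpD (Cha15g007170, 0.70, adjusted p = 0.0114). Among the falls they were the oxygenase SRG1 (Cha09g016480, -1.09, adjusted p = 0.00287) and a senescence-induced receptor-like kinase (ChaUn22461.1, -0.67, adjusted p = 0.0148). The calls for ClpD and for the kinase were lost in 4 and 3 of 15 alternatives. The number called fell to 4 without high-temperature replicate 3 or without low-temperature replicate 2. SAG12, a cysteine protease whose gene marks late leaf senescence in Arabidopsis, has 8 models here, a group singled out after its values were seen. None of them was tested and none exceeded 11 counts in a library. Of 7 tested models whose protein name holds the word senescence, 0 were called higher and 1 lower, or 14.3%. Among them SENESCENCE-ASSOCIATED GENE 21 (Cha11g001340) had 2.72, 5.82 and 6.71 CPM at high and 38.6, 38.7 and 4.86 CPM at low temperature (edgeR, adjusted p = 0.167). The protease SAG39 (Cha07g004370) had means of 4.35 and 4.44 CPM.

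Other tissue markers were measured beside these values. Dividing-cell markers summed to 9361 to 14530 CPM at high and 12573 to 16408 CPM at low temperature, with 1 that rose and 3 that fell of 38 tested. Vascular and secondary wall markers summed to 828 to 857 and 877 to 927 CPM, with 2 that rose and 1 that fell of 46. Epidermis and cuticle markers summed to 2787 to 3028 and 2478 to 2756 CPM, with 4 that rose and 7 that fell of 35. The mesophyll markers had 4 that rose and 14 that fell of 31. High-temperature replicate 2 had the lowest warm sum for each of these marker groups, mesophyll included. The share called was 10.5% of dividing-cell, 6.52% of vascular, 31.4% of epidermis and 58.1% of mesophyll markers, against 18.9% of all tested models. Counts were 0 in all libraries for 1 of 53 dividing-cell and 2 of 61 vascular markers, and for no mesophyll or epidermis marker. The mesophyll, vascular and epidermal sums did not overlap between groups, and their part in the chlorophyllase differences was not tested.

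The profiles most like each chlorophyllase were found by the root mean square difference of log2 CPM, centred on each model's own mean, over the 6 libraries and 13976 other described models with a mean of at least 5 CPM. Closest to ChaUn7748.1 were expansin-A8 (ChaUn17215.1, 0.047), an enzyme named vestitone reductase (ChaUn5625.1, 0.066) and hydroxymethylglutaryl-CoA synthase (Cha12g002100, 0.067), followed by a xylosyltransferase (Cha04g015770, 0.081) and a putative 12-oxophytodienoate reductase (ChaUn4721.5, 0.082). Expansins loosen cell walls, hydroxymethylglutaryl-CoA synthase belongs to the mevalonate pathway, and 12-oxophytodienoate reductases act in the octadecanoid pathway. Closest to Cha05g004350 were the plastid kinase STN8 (Cha04g022690, 0.059), which phosphorylates photosystem II core proteins, an NADP-dependent malic enzyme (Cha06g013820, 0.083) and a trichome birefringence-like protein (Cha07g004400, 0.098). Auxin response factor 6 (Cha07g008810, 0.102) and a plastid ATP/ADP transporter (Cha03g006670, 0.111) followed. These genes were picked for a likeness that is mostly the temperature difference itself, so their differences are not tested here.

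Of the other chlorophyllases, 2 had the mean of 5 CPM needed to be ranked. Cha09g014980 was 3918th from ChaUn7748.1 and 9157th from Cha05g004350, with root mean square differences of 0.572 and 0.634. Cha08g000380 was 5611th and 12401st, at 0.642 and 0.823. Cha05g004390, which lies under that mean and was not ranked, differed by 0.391 from ChaUn7748.1 and by 1.305 from Cha05g004350. The chosen pair differed from each other by 1.175.

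**Figure D5:**
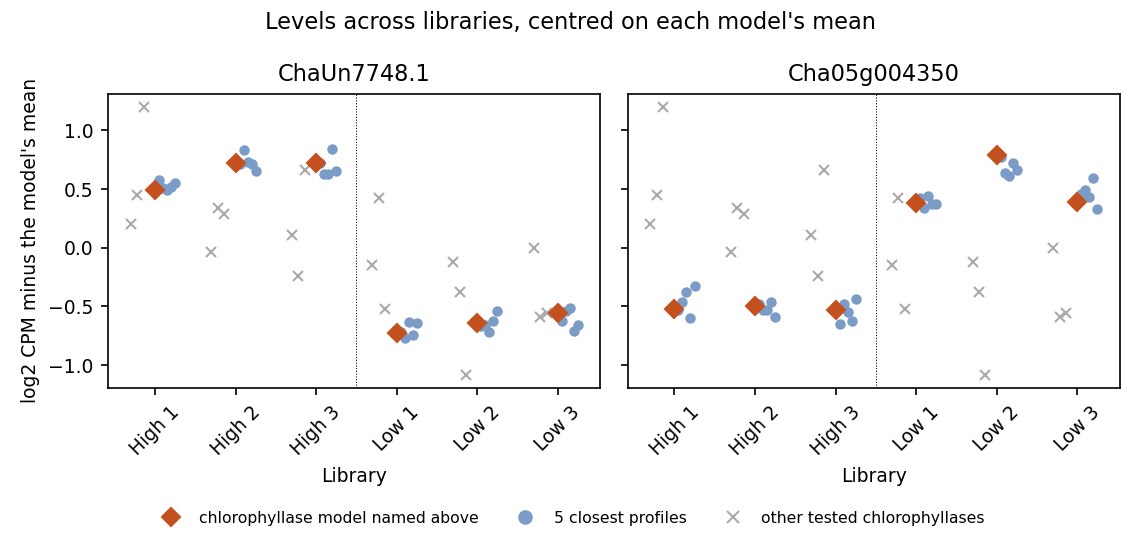
Log2 CPM minus each model's mean over the 6 libraries, for ChaUn7748.1 (left) and Cha05g004350 (right), drawn as orange diamonds, with their 5 closest models (blue points) and the other tested chlorophyllases (grey crosses). Points within a library are shifted sideways only to be seen, and the blue points lie close to the diamonds in every library. The crosses are more spread, and some of them lie near the diamonds of ChaUn7748.1 in single libraries.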

How the data were processed

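Total RNA of the shoots was purified on RNeasy columns and sequenced as NEBNext Ultra libraries, per the labels' protocols. The authors deposited raw counts per gene model and FPKM for the same models. The submitters' processing notes list, without roles, HISAT2 2.0.5 and featureCounts 1.5.0-p3. Per the submitters' processing notes DESeq2 1.20.0, R 4.1.0, CASAVA 1.8.2 and fastp were used too. Neither genome build nor strand setting is given in the sources used here, so antisense reads cannot be told apart. The deposited FPKM follow from count, length and 1 divisor per library, which was 1.13 times the library total in high-temperature replicate 2 and 0.977 to 1.01 times elsewhere. All 33556 models of the gene caller have lengths that are multiples of 3, so lengths are coding lengths. No model identifier matched the RefSeq gene table at hand, so names and coordinates are those of the deposited tables, and no sequences are shown.

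The count test was edgeR's robust quasi-likelihood F test (edgeR 4.0.16, R 4.3.3) with TMM scaling, temperature group as sole term and filterByExpr at its minimum of 10 counts, adjusted by Benjamini-Hochberg over all 26767 tested models and called at an adjusted p under 0.05. CPM are scaled by TMM. SE come from the log2 difference and its F value. Lists were word patterns matched on the whole description. Named were the chosen pair, tested models of the breakdown steps, called phytol models, the senescence models with the 2 smallest p in each direction, 2 neighbours on each side and the 5 closest profiles (log2 CPM, prior count 2). Members and lists were chosen with earlier results of these data known. Alternatives were other scalings and count filters, DESeq2 1.42.0, limma 3.58.1 on log2 FPKM (pseudocount 1 or 0.1, filter at a mean FPKM of 0.5 or none), the replicate number as a block and each library left out. In simulated counts for the 26767 models compared between low and high temperature, the test called 16% of 50 models given a 1.5-fold change, 58% of those given 2-fold, 94% of those given 4-fold and 98% of those given 8-fold, and 16 of 26567 unchanged models were called. Only 50 models per fold were changed there, while 5062 were called in the data. The adjusted p cut was therefore stricter in the simulation, and these shares are not the power of the reported test.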

Additional observations from a re-analysis of the deposited data

How the results depend on the processing

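The log2 difference of chlorophyllase-2 ChaUn7748.1 ran from -1.37 to -1.24 and that of chlorophyllase-1 Cha05g004350 from 0.92 to 1.13 over 15 alternatives each, and leaving out 1 library gave -1.37 to -1.26 and 0.92 to 1.13. All of these moved by less than the spread between libraries. Leaving out 1 of 3 libraries can hardly move a group mean by that much, so those alternatives could not show otherwise. The summed FPKM of the other chlorophyllases was lower in the cold in all 8 alternatives (log2 ratio -1.57 to -0.21, and -0.36 to -0.21 with 1 library left out). Leaving out 1 library gave 2606 to 5621 called gene models, the lowest without low-temperature replicate 2 (2606) and replicate 3 (2681), and unfiltered FPKM gave 2867. With 1 library left out, 0 to 2 models of the chlorophyllase, pheophytinase and oxygenase group were called, 0 to 3 of chlorophyll breakdown, 1 to 3 of the phytol list and 4 to 12 of the senescence list. The 0 in both breakdown counts came without low-temperature replicate 2. The phytol list gave 2 with library totals, 2 without a count filter and 2 with the replicate number as a block. The senescence list gave 5 with unfiltered FPKM and 1 of 7 tested when matched on the protein name alone, chosen after seeing the data. Replicate numbers did not pair the libraries, since same-numbered ones had deviations correlated at -0.011, 0.04 and -0.009. With the block 4805 gene models were called. For single gene models other than the chosen pair, 372 of 387 alternative values stayed on their side of the threshold, 14 lost a call and 1 gained a call, and the causes were not tested. In 10 of the 387, over 6 gene models, the sign of an uncalled difference changed. The gain was Cha04g008100 at a minimum of 30 counts (adjusted p = 0.0484). At these depths a count of 3 is 0.192 to 0.197 CPM of the library total, here without TMM scaling, so models such as Cha05g004340 lie near the limit of detection.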
